A study of Mus musculus with 12 samples.

Results

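Of the chemokine receptors that guide leukocytes into inflamed tissue, 8 were examined: Ccr1, Ccr2, Ccr3, Ccr4, Ccr8, Cxcr3, Cxcr6 and Cx3cr1. The members were matched by gene name and are 8 of 21337 named genes on the array. All 8 passed the filter on dim probes and are among the 15532 features tested. The cells were Treg (regulatory T cells, a CD4 lineage that holds immune responses in check), sorted from C57BL/6 reporter mice and measured on 12 single-colour arrays, 3 for each of 4 groups. IL10+ and IL10- tumour Treg came from VERT-X mice, in which the Il10 gene drives EGFP, and were gated as CD25+ and CD120b+ or CD120b-low. Total tumour Treg came from FoxP3-EGFP mice, in which EGFP marks cells that use the Foxp3 gene, and spleen Treg came from FoxP3-EGFP mice without a tumour. The tumours were MC38, a mouse colon carcinoma line, grown under the skin for 2 weeks and pooled before the sort, and every sort began with CD45+ CD11b-low CD3+ CD4+ cells. Reporter strain and second gate differ between the IL10 fractions and the other 2 groups, so these cannot be told apart from tissue or from the fraction where those groups are compared.

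Chemokine receptors are G protein-coupled receptors on the cell surface that read gradients of secreted chemokines and steer cell movement. Resting T cells carry receptors for lymphoid organs, such as Ccr7, and activated T cells gain receptors for inflamed tissue. Ccr2, Cx3cr1 and Ccr1 are best known from monocytes and macrophages, although activated T cells can carry them too. Ccr4 and Ccr8 are found on Treg and on type 2 helper T cells, and Ccr3 is the eotaxin receptor of eosinophils. Cxcr3 marks T cells with a type 1 programme, and Cxcr6 marks T cells that reside in tissue.

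Ccr2, Ccr8 and Cx3cr1 were higher in all 3 tumour Treg groups than in spleen Treg, by 1.74 to 5.26 on the log2 scale. Cxcr3 passed the test in no comparison. Cxcr6 and Ccr3 were higher in total tumour than in spleen Treg, Ccr4 passed no test, and Ccr1 was dim. No receptor gene passed the test between IL10+ and IL10- tumour Treg. Nor did Il10, the gene that defines these fractions, at 4.69 against 0.05 (24.8-fold, adjusted p = 0.343 in limma's test). A gene not called there is therefore not shown to be alike in both fractions. All 3 IL10+ arrays lay below all 3 IL10- arrays for Ccr4 and above them for Cxcr6 and the dim Ccr1. Of all features, 7.4% did not overlap between these groups.

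A level is log2 of the processed signal after the log2 75th percentile of its array was subtracted, and a difference is between 2 group means of levels. Genes are described as called where limma's test, adjusted over all features, gave a p below 0.05. Levels of different genes are not set against each other. Between 42.2% and 65.4% of probes were well above background, and that percentile ranged from 92.3 to 606 signal units, with both the lowest share and the lowest percentile on IL10+ replicate 3. Arrays of a group correlated at 0.927 to 0.989 (Pearson, across features). The arrays lay on 4 slides: total tumour replicate 3 shared a slide with all spleen arrays, IL10+ replicate 2 with all IL10- arrays, IL10+ replicate 1 with total tumour replicates 1 and 2, and IL10+ replicate 3 lay alone. The Foxp3 probe read 3.74 ± 0.97 in IL10+ and 4.06 ± 0.90 in IL10- tumour Treg (SD, n = 3 each) but was not well above background on any total tumour or spleen array, although those cells were sorted on FoxP3-EGFP. The labels name 3 experiments for each population.

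Spleen replicate 2 stood apart from the other 2 spleen arrays. Il2ra, which encodes CD25, read -3.90 there and was not well above background, against 0.72 and 1.27. Tnfrsf1b, which encodes CD120b, read 0.64, against 2.67 and 2.52, and Il10 read -3.61, against 0.84 and 0.69. Cd3e (3.42, against 3.24 and 3.16) and Cd4 (1.49, against 0.57 and 0.69) were not low there. Among the receptor genes, Cxcr6 was high and Ccr8, Ccr4, Ccr3 and the dim Ccr1 were low on that array. Ccr2 was also lowest there among the spleen arrays, by a smaller margin. Results that rest on it are given with and without it.

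**Figure D1:**
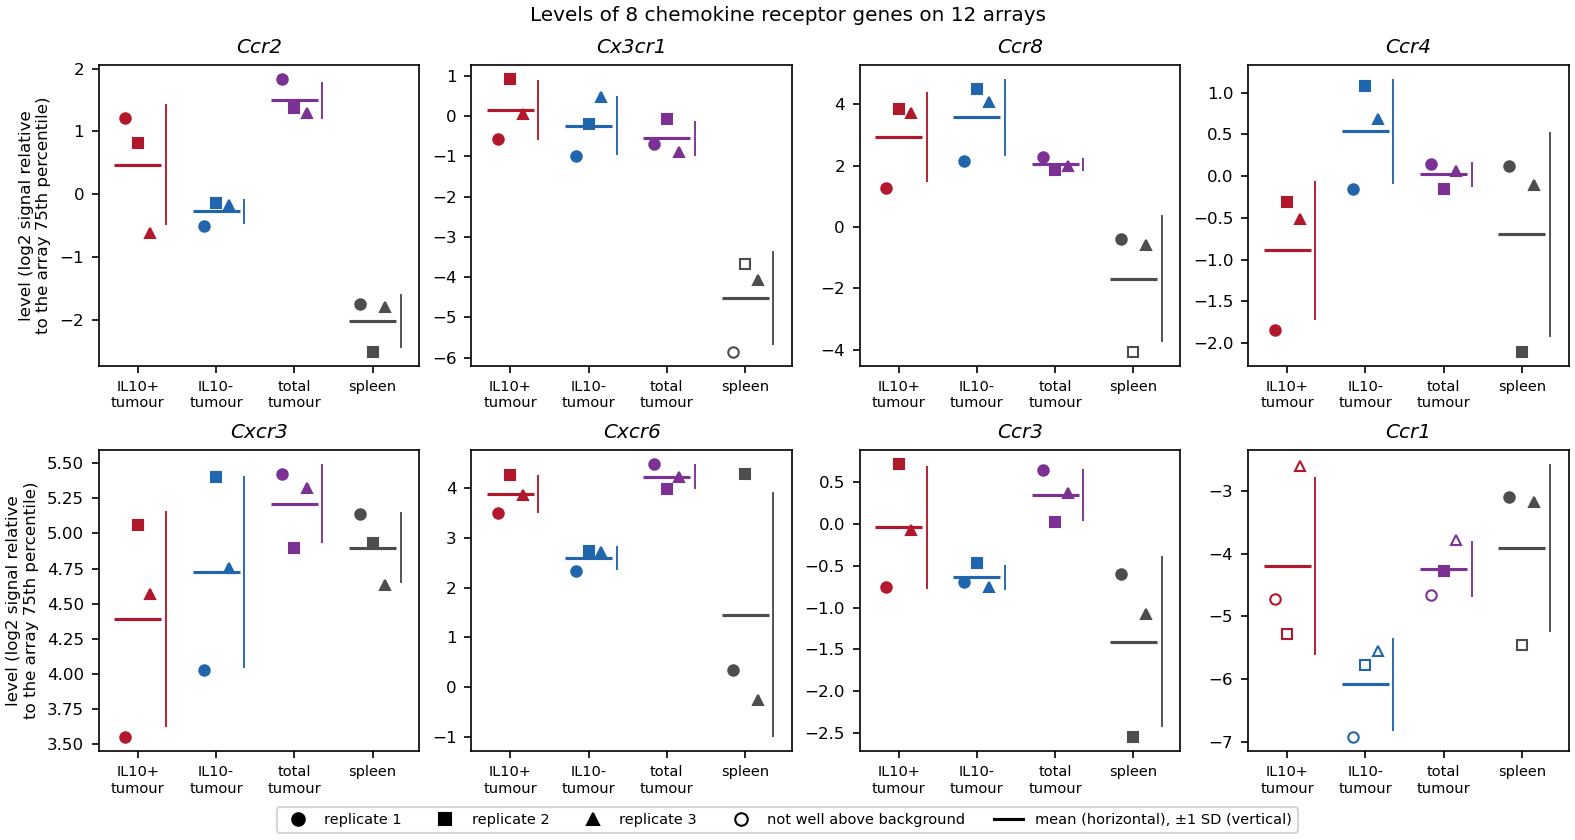
Levels (log2 units above or below each array's 75th percentile) of the 8 receptor genes on each array, by group; horizontal lines are means and vertical lines 1 SD. All 9 tumour arrays lie above all 3 spleen arrays for Ccr2, Cx3cr1 and Ccr8, and spleen replicate 2 lies with the tumour arrays for Cxcr6.

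Ccr2, the receptor for the monocyte chemoattractants Ccl2, Ccl7 and Ccl12, was measured well above background on all 12 arrays. Its level was 1.21, 0.82 and -0.62 on the IL10+ arrays, -0.50, -0.14 and -0.17 on the IL10- arrays, 1.84, 1.37 and 1.29 on the total tumour arrays and -1.74, -2.50 and -1.78 on the spleen arrays. Every tumour array was above every spleen array, and every total tumour array was above every IL10+ and IL10- array. Total tumour Treg averaged 1.50 ± 0.30 and spleen Treg -2.01 ± 0.43 (SD, n = 3 each), a difference of 3.51 ± 0.42 (SE) or 11.4-fold (adjusted p = 0.000159). The difference was 3.30 on the slide that holds total tumour replicate 3 and all spleen arrays. Ccr2 was also higher in IL10+ than in spleen Treg, by 2.48 ± 0.42 (SE, adjusted p = 0.000864), and in IL10- than in spleen Treg, by 1.74 ± 0.42 (SE, adjusted p = 0.00677). In these bulk samples, fewer cells of a type and less RNA per cell cannot be told apart.

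In the order of group means, Ccr2 was highest in total tumour Treg, then in IL10+, IL10- and spleen Treg. The neighbours IL10+ and total tumour did not overlap but were not called apart (-1.02 ± 0.42, SE, adjusted p = 0.259), and IL10+ and IL10- overlapped (0.74 ± 0.42, SE, adjusted p = 1). IL10- Treg were 1.77 below total tumour Treg (adjusted p = 0.104), and this passed without IL10+ replicate 3, which enters only through the shared spread (adjusted p = 0.0363). The other probe of Ccr2 gave 3.06 between total tumour and spleen Treg (adjusted p = 1.85e-05) but put total tumour only 0.12 above IL10+ Treg.

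Cx3cr1, the receptor for the membrane-bound chemokine Cx3cl1 (fractalkine), had levels of -0.56, 0.92 and 0.06 on the IL10+ arrays and -0.99, -0.20 and 0.48 on the IL10- arrays. The total tumour arrays read -0.69, -0.07 and -0.90, and the spleen arrays -5.86, -3.67 and -4.06. Only spleen replicate 3 was well above background among the spleen arrays, so the spleen mean of -4.53 ± 1.17 (SD, n = 3) rests on 1 measured array and on readings near background. All tumour arrays lay above all spleen arrays, whereas the 3 tumour groups overlapped. Cx3cr1 was higher by 3.98 ± 0.60 in total tumour than in spleen Treg (SE, adjusted p = 0.000643), by 4.67 ± 0.60 in IL10+ than in spleen Treg (adjusted p = 0.000171) and by 4.29 ± 0.60 in IL10- than in spleen Treg (adjusted p = 0.000313). Within the slide shared by total tumour replicate 3 and the spleen arrays, the difference was 3.63. The other Cx3cr1 probe, above background on no spleen array, gave 3.43 for total tumour against spleen Treg (adjusted p = 0.000649).

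Ccr8, the receptor for Ccl1, has been described on Treg of tumours and skin. It read 1.26, 3.86 and 3.73 on the IL10+ arrays, 2.15, 4.51 and 4.07 on the IL10- arrays, 2.28, 1.87 and 1.98 on the total tumour arrays and -0.39, -4.08 and -0.58 on the spleen arrays. Every tumour array exceeded every spleen array, and replicate 1 was the lowest array in both IL10 fractions. At each replicate number, the IL10+ array read below the IL10- array, though whether equal numbers belong together was not tested. Spleen replicate 2 was the only array on which Ccr8 was not well above background. Compared with spleen Treg, Ccr8 was higher by 3.73 ± 1.05 in total tumour (SE, 13.2-fold, adjusted p = 0.0168), by 4.63 ± 1.05 in IL10+ (24.8-fold, adjusted p = 0.00443) and by 5.26 ± 1.05 in IL10- tumour Treg (38.3-fold, adjusted p = 0.00236).

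Without spleen replicate 2, these differences of Ccr8 were smaller, at 2.53 (5.78-fold, adjusted p = 0.0461), 3.44 (10.8-fold, adjusted p = 0.0101) and 4.06 (16.7-fold, adjusted p = 0.00488) in the same order. The call in total tumour against spleen Treg was lost without total tumour replicate 1 (adjusted p = 0.0512). Within the slide of total tumour replicate 3, the difference was 3.66. Ccr8 averaged 2.95 ± 1.47 in IL10+ and 3.58 ± 1.26 in IL10- Treg (SD, n = 3 each), a difference of -0.63 with a 95% interval from -2.96 to 1.70 (adjusted p = 1). On the slide that holds IL10+ replicate 2 and the IL10- arrays, the sign was the opposite, at 0.29. That value sets 1 IL10+ array (3.86) against the mean of 3 IL10- arrays. Of these, replicate 1 read lower (2.15) and replicates 2 and 3 read higher (4.51 and 4.07). Normexp gave -1.83 (adjusted p = 0.169).

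With slide as a fixed block, Ccr2 and Cx3cr1 were still called in total tumour against spleen Treg (3.30, adjusted p = 0.00252, and 3.63, adjusted p = 0.0311), and Ccr8 was not (3.66, adjusted p = 0.13). These differences equal those within the slide of total tumour replicate 3. They rest on that 1 tumour array and are not a second check. In IL10+ against spleen Treg, Ccr2 was still called in that fit (2.91, adjusted p = 0.0184), whereas Ccr8 (2.84, adjusted p = 0.405) and Cx3cr1 (3.45, adjusted p = 0.116) were not. None of them was called in that fit for IL10- against spleen Treg, with 1.81 for Ccr2, 2.56 for Ccr8 and 2.29 for Cx3cr1 (adjusted p from 0.117 to 0.552). The IL10- arrays share no slide with the spleen arrays, nor do the IL10+ arrays, so no value within a slide exists for those pairs.

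Normexp background correction made the differences of these 3 genes from spleen Treg smaller. Cx3cr1 was still called, at 1.81 in total tumour, 1.97 in IL10+ and 1.97 in IL10- Treg (adjusted p from 0.00127 to 0.00447). Ccr8 was still called at 2.58, 2.37 and 4.20 in the same order (adjusted p from 0.0015 to 0.0185). Ccr2 was called at 2.31 in total tumour (adjusted p = 0.00154) and 1.59 in IL10+ Treg (adjusted p = 0.00369), but its call in IL10- Treg was lost (0.94, adjusted p = 0.0687).

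The promoters of these 3 genes are shown because they are the members called above spleen in every tumour group. Each runs from 250 bases before to 50 bases after the gene start in RefSeq (GRCm38.p6), 5′ to 3′ on the strand of the gene, with capitals marking matches to the motifs listed after them. Ccr2 lies at chr9:124101933-124102232 on the plus strand, Ccr8 at chr9:120091883-120092182 on the plus strand and Cx3cr1 at chr9:120068247-120068546 on the minus strand.
Ccr2: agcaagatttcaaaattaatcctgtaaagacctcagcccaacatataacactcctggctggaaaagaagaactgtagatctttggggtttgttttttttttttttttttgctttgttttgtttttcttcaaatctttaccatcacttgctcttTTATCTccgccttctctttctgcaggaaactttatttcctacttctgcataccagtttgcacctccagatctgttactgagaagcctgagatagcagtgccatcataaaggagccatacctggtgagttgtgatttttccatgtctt
Ccr8: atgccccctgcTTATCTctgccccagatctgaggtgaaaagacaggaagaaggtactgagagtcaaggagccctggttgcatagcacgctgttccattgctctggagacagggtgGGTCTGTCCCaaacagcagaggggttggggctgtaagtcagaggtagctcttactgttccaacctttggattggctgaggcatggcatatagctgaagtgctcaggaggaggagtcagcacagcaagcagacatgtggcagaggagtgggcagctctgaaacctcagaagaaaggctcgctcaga
Cx3cr1: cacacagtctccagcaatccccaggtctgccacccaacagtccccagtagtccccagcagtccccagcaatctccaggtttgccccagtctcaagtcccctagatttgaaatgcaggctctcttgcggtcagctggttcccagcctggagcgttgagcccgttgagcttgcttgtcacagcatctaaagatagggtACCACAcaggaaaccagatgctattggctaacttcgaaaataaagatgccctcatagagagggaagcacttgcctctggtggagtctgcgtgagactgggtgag

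Of the 8 genes, 7 lie on chromosome 9 and Cxcr3 on X. Cx3cr1 and Ccr8 are neighbours in RefSeq, and Cxcr6, Xcr1, Ccr1, Ccr1l1, Ccr3 and Ccr2 follow each other in this order. All 8 promoters were found in RefSeq and searched on both strands for 6 motifs, and no matches in them overlapped. The GATA motif AGATAA was in the promoters of Ccr2, Ccr3 and Ccr8 and in 11.2% of 32851 promoters. The RUNX motif TGTGGT was in those of Ccr1, Cxcr3, Cxcr6 and Cx3cr1 and in 16.8% of all. The NF-kB motif (GGGA and CC with 4 bases between them) was in those of Ccr1, Ccr3 and Ccr8 (20.7% of all), and the AP-1 motif TGANTCA in those of Ccr3 and Ccr4 (7.81% of all). The ETS motif GAGGAAGT was in that of Cxcr3 (3.2% of all), and the T-box motif GGTGTGA in none of the 8 (3.98% of all). A match describes the letters only.

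Ccr1, a receptor for Ccl3, Ccl5 and Ccl9 on myeloid cells, was well above background on only 3 of 12 arrays, namely total tumour replicate 2 and spleen replicates 1 and 3. The IL10+ arrays read -4.72, -5.27 and -2.60, the IL10- arrays -6.92, -5.77 and -5.54, the total tumour arrays -4.66, -4.27 and -3.78 and the spleen arrays -3.10, -5.46 and -3.19. No IL10+ or IL10- array measured it above background, so no fold is given between those fractions. Ccr1 fell in IL10- relative to spleen Treg and was at least 1.36-fold lower (fitted difference -2.16 ± 0.79, SE, adjusted p = 0.0431). That call was lost on leaving out any of 8 arrays (adjusted p from 0.0554 to 0.136). The difference was -0.91 with slide as a block (adjusted p = 0.751), -0.27 with normexp (adjusted p = 0.887) and -2.94 without spleen replicate 2 (adjusted p = 0.0108). The difference between total tumour and spleen Treg was -0.32, with a 95% interval from -2.08 to 1.43 (adjusted p = 0.777), and -1.10 without spleen replicate 2.

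Ccr4, the receptor for Ccl17 and Ccl22, was measured on all 12 arrays. Its level was -1.84, -0.32 and -0.52 on the IL10+ arrays, -0.16, 1.07 and 0.69 on the IL10- arrays, 0.14, -0.15 and 0.07 on the total tumour arrays and 0.13, -2.11 and -0.10 on the spleen arrays. Every IL10+ array was below every IL10- and every total tumour array, and the low spleen value is replicate 2. IL10+ Treg averaged -0.89 ± 0.83 and IL10- Treg 0.53 ± 0.63 (SD, n = 3 each), a difference of -1.43 ± 0.60 (SE) with a 95% interval from -2.76 to -0.09. It had an unadjusted p of 0.0392 and an adjusted p of 1 in limma's test, which it did not pass. On the slide that holds IL10+ replicate 2 and the IL10- arrays, the difference was -0.85. The other Ccr4 probe gave -2.16 (adjusted p = 1).

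Between tumour and spleen, Ccr4 differed by 0.72 ± 0.60 in total tumour (SE, adjusted p = 0.372), by -0.20 ± 0.60 in IL10+ (adjusted p = 0.804) and by 1.23 ± 0.60 in IL10- tumour Treg (adjusted p = 0.115). Without spleen replicate 2, these were 0.01, -0.90 (adjusted p = 0.151) and 0.52 (adjusted p = 0.397) in the same order. The order of means was IL10-, total tumour, spleen and IL10+, and each neighbouring pair in it overlapped.

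Ccr3, the receptor for the eotaxins Ccl11 and Ccl24, had levels of -0.75, 0.72 and -0.08 on the IL10+ arrays and -0.69, -0.47 and -0.76 on the IL10- arrays. The total tumour arrays read 0.65, 0.02 and 0.37, and the spleen arrays -0.59, -2.55 and -1.08. Total tumour arrays were all above the spleen and the IL10- arrays, and both IL10 fractions overlapped spleen Treg. Ccr3 was higher in total tumour than in spleen Treg by 1.75 ± 0.49 (SE, 3.37-fold, adjusted p = 0.0165), 1.78 within the slide of total tumour replicate 3. That call was lost without total tumour replicate 1 (adjusted p = 0.0579) and with slide as a block (adjusted p = 0.11), and the difference was 1.18 without spleen replicate 2 (2.27-fold, adjusted p = 0.0419). The other Ccr3 probe gave 2.35 (adjusted p = 0.0298).

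In IL10+ against spleen Treg, Ccr3 was called at 1.37 ± 0.49 (SE, adjusted p = 0.0391). Leaving out any of 9 arrays ended this call (adjusted p from 0.0504 to 0.133), with 0.80 without spleen replicate 2, and so did slide as a block (0.69, adjusted p = 0.662) and normexp (0.82, adjusted p = 0.0717). IL10- and spleen Treg differed by 0.77 ± 0.49 (SE, adjusted p = 0.217), and by 0.20 without spleen replicate 2. Of 10 eosinophil, basophil and mast cell markers, 5 were tested. Of these, Mcpt4, Cpa3 and Tpsb2 rose and Prg2 fell in total tumour against spleen Treg, where 22% of all features rose and 20.3% fell. The summed level of the 10 markers ranged from -0.97 to 1.77 on the IL10+ arrays and -1.43 to 0.09 on the IL10- arrays. It ranged from -0.58 to 1.54 on the total tumour arrays and -0.72 to 0.84 on the spleen arrays. Siglecf and Mcpt8 were not well above background on any array, whereas the eosinophil granule gene Prg2 was so on all 3 spleen arrays and on 1 IL10- array. The part of these cells in the Ccr3 values was not tested.

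Cxcr3, the receptor for the interferon-induced chemokines Cxcl9, Cxcl10 and Cxcl11, lay within a narrow range. It read 3.55, 5.06 and 4.57 on the IL10+ arrays, 4.03, 5.40 and 4.75 on the IL10- arrays, 5.42, 4.89 and 5.32 on the total tumour arrays and 5.13, 4.93 and 4.63 on the spleen arrays. All 4 groups overlapped, and replicate 1 was the lowest array in both IL10 fractions. As for Ccr8, the IL10+ array read below the IL10- array at each replicate number, though whether equal numbers belong together was not tested. The difference was 0.31 in total tumour against spleen Treg, with a 95% interval from -0.61 to 1.24 (adjusted p = 0.585). It was -0.51 in IL10+ against spleen Treg (interval -1.43 to 0.42, adjusted p = 0.332) and -0.17 in IL10- against spleen Treg (interval -1.10 to 0.75, adjusted p = 0.752). With normexp background correction, Cxcr3 was called lower in IL10+ than in spleen Treg (-1.80, adjusted p = 0.00942). Normexp lowered the difference of every receptor gene there except Ccr1 and Ccr4, for instance Ccr8 (4.63 to 2.37) and Cxcr6 (2.42 to 1.03). Its offset was 50 signal units, and the 75th percentile of IL10+ replicate 3 was 92.3. The part of the offset was not tested. Between the IL10 fractions, Cxcr3 differed by -0.33 ± 0.41 (SE, adjusted p = 1), by -1.54 with normexp, and by 0.33 on the slide that holds both. There, 1 IL10+ array, replicate 2 (5.06), is set against 3 IL10- arrays. It lay above IL10- replicates 1 and 3 (4.03 and 4.75) and below IL10- replicate 2 (5.40).

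Cxcr6, the receptor for Cxcl16, was well above background on every array. The IL10+ arrays read 3.51, 4.27 and 3.87, the IL10- arrays 2.33, 2.74 and 2.73, the total tumour arrays 4.49, 3.99 and 4.23 and the spleen arrays 0.35, 4.28 and -0.25. Every IL10+ and total tumour array was above every IL10- array, while spleen replicate 2 was as high as the total tumour arrays and the other 2 spleen arrays were below all tumour arrays. Total tumour Treg averaged 4.23 ± 0.25 and spleen Treg 1.46 ± 2.46 (SD, n = 3 each), a difference of 2.78 ± 0.93 (SE, 6.85-fold, adjusted p = 0.0353), or 2.77 on the slide of total tumour replicate 3. The call was lost on leaving out any total tumour array or spleen replicate 1 or 3 (adjusted p from 0.0713 to 0.125), with slide as a block (adjusted p = 0.242) and with normexp (2.40, adjusted p = 0.132).

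Without spleen replicate 2, the Cxcr6 difference was 4.19 in total tumour (18.2-fold, adjusted p = 1.78e-05), 3.84 in IL10+ (14.3-fold, adjusted p = 2.18e-05) and 2.55 in IL10- against spleen Treg (5.86-fold, adjusted p = 0.00018). With it, the IL10+ difference was 2.42 ± 0.93 (SE, adjusted p = 0.0507) and the IL10- difference 1.14 ± 0.93 (SE, adjusted p = 0.331), and neither was called. IL10+ Treg averaged 3.88 ± 0.38 and IL10- Treg 2.60 ± 0.23 (SD, n = 3 each), which differed by 1.28 ± 0.93 (SE, adjusted p = 1) with a 95% interval from -0.78 to 3.35. It was 1.67 on the slide that holds both fractions, 0.06 with normexp, and 1.28 ± 0.25 (SE, adjusted p = 0.188) without spleen replicate 2. IL10- Treg lay 1.64 below total tumour Treg (adjusted p = 0.431, and 0.0406 without spleen replicate 2).

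**Figure D2:**
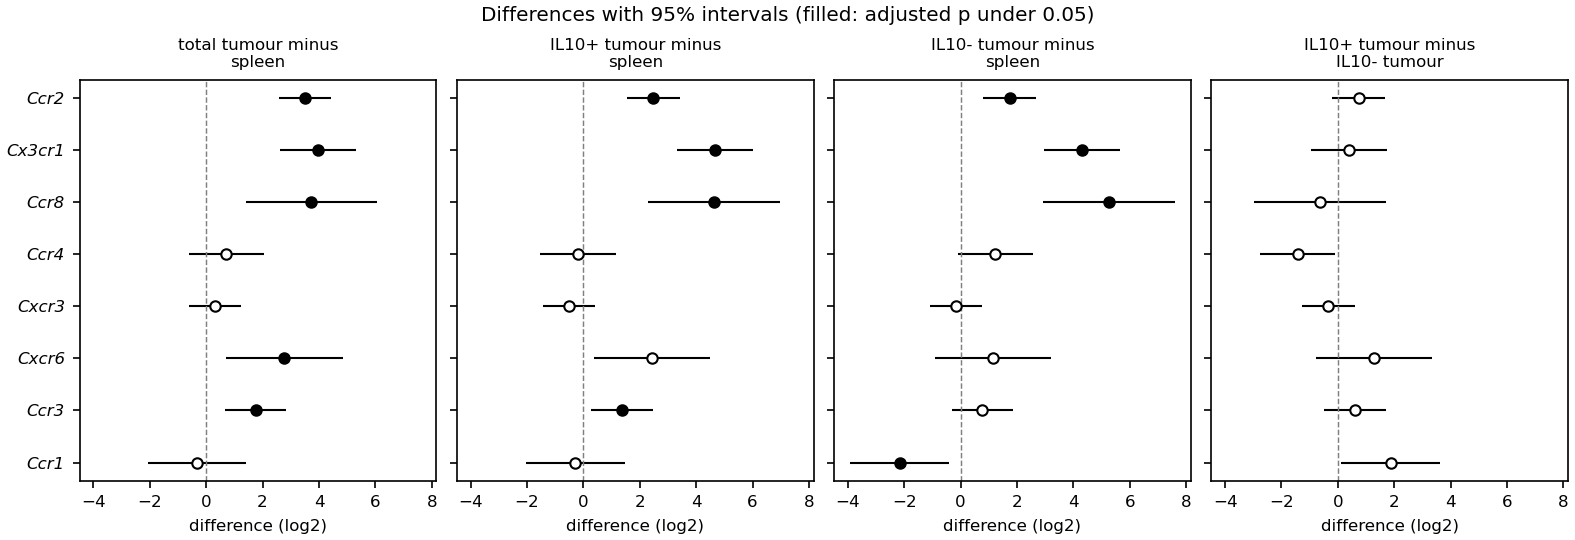
Differences in level (log2, points) with 95% intervals (lines) of the 8 receptor genes in 4 comparisons; filled points have an adjusted p under 0.05. The intervals of Ccr2, Cx3cr1 and Ccr8 lie above 0 in all 3 comparisons with spleen Treg, and no point is filled for IL10+ against IL10- tumour Treg.

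Over the 8 receptor genes, 5 rose and none fell in total tumour against spleen Treg, where 42.3% of all features were called, 22% higher and 20.3% lower. The groups did not overlap for 4 of the 8 (Ccr2, Ccr3, Ccr8 and Cx3cr1), as for 65.7% of all features. The median difference was 2.26, against -0.01 over all features. In IL10+ against spleen Treg, 4 rose and none fell, where 50.8% of features were called, 23.9% higher and 26.9% lower (median 1.90, against -0.06), and 3 of the 8 did not overlap, as for 57.8% of features. For IL10- against spleen Treg, 3 rose and Ccr1 fell, where 49% of features were called, 24.3% higher and 24.7% lower (median 1.18, against 0.00), and 4 of the 8 did not overlap, as for 61.4% of features. These comparisons share the spleen arrays.

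Between IL10+ and IL10- tumour Treg, limma called 0 of 8 receptor genes, where 0.0515% of features were called, and 2 of them (Ccr1 and Ccr4) had an unadjusted p under 0.05, as had 4.64% of features. The groups did not overlap for 3 receptor genes (Ccr1 and Cxcr6 higher in IL10+, Ccr4 lower), as for 7.4% of features, and Ccr1 was above background in neither fraction. Ccr2, Ccr3 and Cx3cr1 differed by 0.74, 0.60 and 0.38. Against total tumour Treg, limma called 0 of 8 in IL10+ Treg, where 0.2% of features were called. There, 1 of the 8 (Ccr2) had an unadjusted p under 0.05, as had 16.8% of features, and 2 did not overlap (Ccr2 and Ccr4), as for 23.1%. In IL10- against total tumour Treg, limma called 0 of 8, where 0.148% of features were called. There, Ccr1 and Ccr2 had an unadjusted p under 0.05, as had 15.5% of features, and 4 did not overlap (Ccr1, Ccr2, Ccr3 and Cxcr6), as for 27.7%.

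Ligand genes of these receptors were read in the same sorted cells. Of 19 on the array, 18 were tested, and 15 rose and none fell in total tumour against spleen Treg (median difference 3.65, against -0.01 over all features, of which 22% rose). Ccl1, Ccl11 and Ccl24 were not called. The 3 ligands with the smallest p were Ccl12, Ccl2 and Ccl8, and none was well above background on any spleen array. Ccl2 read 3.69, 5.02 and 4.56 on the total tumour arrays and -5.77, -5.50 and -5.57 on the spleen arrays, which makes it at least 356-fold higher in total tumour Treg. Ccl8 was at least 107-fold and Ccl12 at least 67.1-fold higher in the same comparison.

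Relative to spleen Treg, 16 of 18 ligands rose and none fell in IL10+ Treg, and in IL10- Treg 15 rose and none fell. Of all features, 23.9% and 24.3% rose in these comparisons. Between the IL10 fractions, limma called 0 of 18 ligands, where 0.0515% of features were called. Of the 18, 14 had the higher mean in IL10+ Treg (median difference 0.40, against -0.04 over all features). The summed ligand level was 8.08 to 8.37 on the IL10+ arrays and 7.47 to 7.68 on the IL10- arrays, without overlap, and 8.51 to 8.69 on the total tumour arrays. Ccl5, the ligand with the highest level, weighs most in this sum and averaged 6.93 in IL10+ and 6.11 in IL10- Treg. The 2 ligands with the smallest p both went the other way. Ccl1, a ligand of Ccr8, read -1.66, -2.41 and -0.41 on the IL10+ arrays and 0.57, 1.99 and 2.12 on the IL10- arrays, a difference of -3.05 (adjusted p = 0.647). Cx3cl1, the ligand of Cx3cr1, differed by -1.47 (adjusted p = 0.827). For both, every IL10+ array was below every IL10- array, and 7.4% of all features did not overlap in this comparison.

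Cxcl16, the ligand of Cxcr6, was singled out after its values were seen. It read 2.85, 2.18 and 3.19 on the IL10+ arrays, 2.32, 2.14 and 2.49 on the IL10- arrays, 2.50, 2.85 and 1.92 on the total tumour arrays and -1.94, -1.66 and -4.35 on the spleen arrays. Spleen replicate 2, high in Cxcr6, was low in Cxcl16 like the other spleen arrays.

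**Figure D3:**
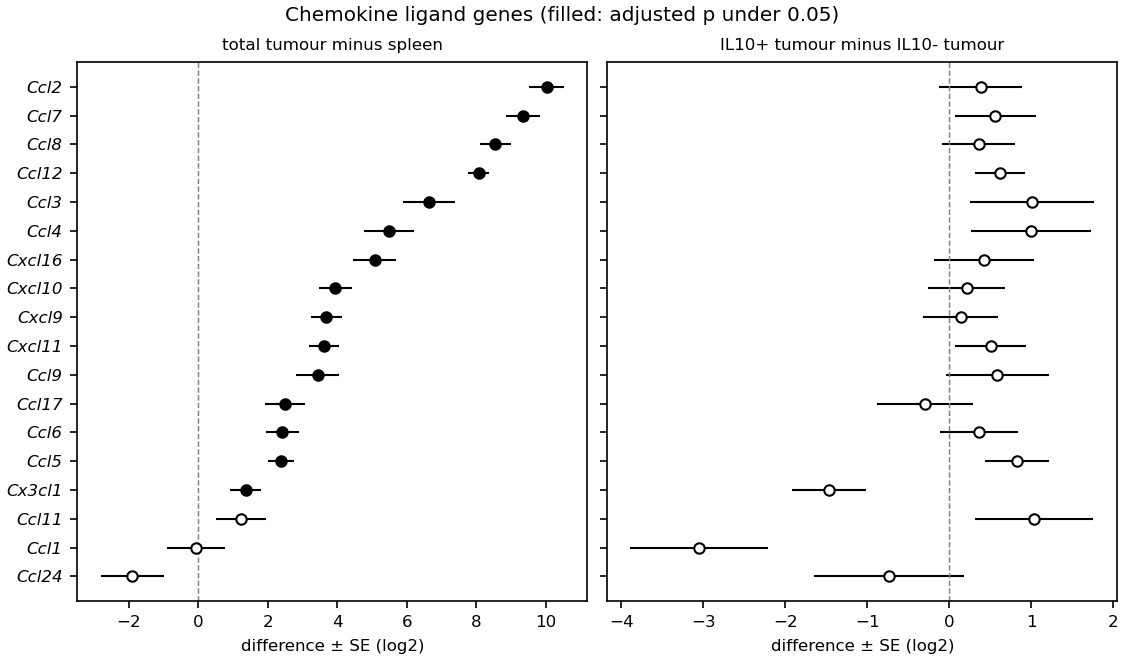
Differences in level ± SE (log2) of the 18 ligand genes tested, in total tumour minus spleen Treg (left) and IL10+ minus IL10- tumour Treg (right); filled points have an adjusted p under 0.05. On the left 15 points are filled, all above 0, and on the right none is.

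Among 16 other chemokine receptor genes, 13 were tested, and 2 rose and 4 fell in total tumour against spleen Treg (median -0.95). Of all features, 22% rose and 20.3% fell in that comparison (median -0.01). Ccrl2, an atypical receptor, rose by 2.81. Cxcr5, which guides lymphocytes into B cell follicles, fell by 4.97 in the same comparison.

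Relative to spleen Treg, 3 other receptor genes rose and 6 fell in IL10+ Treg, and 3 rose and 4 fell in IL10- Treg. Of all features, 23.9% rose and 26.9% fell in IL10+ Treg, and 24.3% rose and 24.7% fell in IL10- Treg. None of the 13 was called between the IL10 fractions, where 0.0515% of features were called. The smallest p there belonged to Ccr6 and Ccr7, the receptor for lymph node homing. Ccr7 read 2.81, 2.58 and 2.48 on the IL10+ arrays and 4.99, 4.89 and 4.52 on the IL10- arrays (difference -2.17, adjusted p = 0.138). Ccr6 differed by -4.59 (adjusted p = 0.128), and for both genes every IL10+ array was below every IL10- array, as for Ccr4. Of all features, 7.4% did not overlap there.

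Of 20 genes for signalling and desensitisation downstream of these receptors, 19 were on the array and tested. In total tumour against spleen Treg, 6 of them rose and 4 fell (median 0.01), where 22% of all features rose and 20.3% fell. Rgs2, a regulator of G protein signalling, rose by 2.02. Pik3r5, a subunit of phosphoinositide 3-kinase gamma, fell by 2.00, and the receptor kinase gene Grk6 fell by 1.25. Against spleen Treg, 7 rose and 5 fell in IL10+ Treg, where 23.9% of all features rose and 26.9% fell. In IL10- Treg 6 rose and 4 fell, where 24.3% of all features rose and 24.7% fell. Between the IL10 fractions 0 of 19 were called, where 0.0515% of features were called. The smallest p there belonged to Pik3r5 (-0.51) and Rgs2 (-0.50).

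Markers of other cells moved with tumour and spleen. For the marker counts here and in the next paragraph, 22% of all features rose and 20.3% fell in total tumour against spleen Treg. Of 15 macrophage and monocyte markers, 14 were tested and 13 rose in total tumour against spleen Treg. Their summed level ranged from 8.998 to 9.75 on the IL10+ arrays, 8.68 to 9.24 on the IL10- arrays, 8.50 to 9.43 on the total tumour arrays and 5.44 to 6.72 on the spleen arrays. Cd163 was the only marker of that list not well above background on any array of any group. The 2 brightest markers were Apoe, which rose by 3.03 in total tumour against spleen Treg, and Lyz2, which averaged 6.80 in IL10+, 6.38 in IL10-, 6.65 in total tumour and 2.65 in spleen Treg. Ccr2, Cx3cr1, Ccr8, Cxcr6, Ccr3 and 15 of the 18 ligands rose in total tumour against spleen Treg as these markers did, and the part of macrophages in their values was not tested.

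All 6 fibroblast markers rose in total tumour against spleen Treg, with summed levels of 6.82 to 7.98 on the IL10+, 6.27 to 7.68 on the IL10-, 6.35 to 6.84 on the total tumour and -2.81 to 0.43 on the spleen arrays, and the matrix genes Dcn and Col3a1 rose by 9.49 and 9.25. All 7 B cell markers fell (Cd79b by 3.75 and Blnk by 2.21), with sums of 1.40 to 2.16, 1.81 to 2.42, 1.89 to 2.13 and 5.55 to 6.48 in the same order, beside the fall of Cxcr5. Of 7 markers of CD8 T cells and NK cells, 4 fell and none rose in total tumour against spleen Treg. Cd8b1 fell by 1.11, and Prf1 differed by 0.96 (adjusted p = 0.237). Mast cell genes Mcpt4 and Cpa3 were at least 10.9-fold and 8.93-fold higher in that comparison. Of 7 dendritic cell markers tested 1 rose and 3 fell, and the brightest, Itgax and Batf3, differed by 0.45 (adjusted p = 0.517) and -0.05 (adjusted p = 0.947). None of 5 neutrophil markers was called, with 0.25 for S100a9 (adjusted p = 0.934) and 1.97 for Csf3r (adjusted p = 0.0554). Of 3 epithelial markers 2 rose, with 2.36 for Krt18 and 0.80 for Epcam (adjusted p = 0.311, not called). Of 9 Treg markers 2 rose and none fell, with Tnfrsf18 up by 1.84 and a difference of -0.38 for Cd3d (adjusted p = 0.303). Sums of the 9 Treg markers were 8.38 to 9.39, 8.71 to 9.35, 8.87 to 9.33 and 8.68 to 8.81 in that order of groups. The total tumour sums lay above all spleen sums. These sums are weighted to the brightest markers, Tnfrsf18 and Cd3d, and say little of dimmer ones. In spleen Treg, Ctla4 averaged 1.84 ± 2.37 and Ikzf2 1.72 ± 2.55 (SD, n = 3 each), with lowest arrays at -0.89 and -1.23. Between the IL10 fractions no marker in these lists was called, where 0.0515% of features were called. All 14 macrophage markers tested were nevertheless higher on average in IL10+ than in IL10- Treg (median difference 0.42, against -0.04 over all features), though the sums overlapped. Ccr2, Ccr3, Cxcr6, Cx3cr1 and the dim Ccr1 had higher means in IL10+ Treg too, whereas Ccr4, Ccr8 and Cxcr3 had lower ones. The part of macrophages in those differences was not tested.

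**Figure D4:**
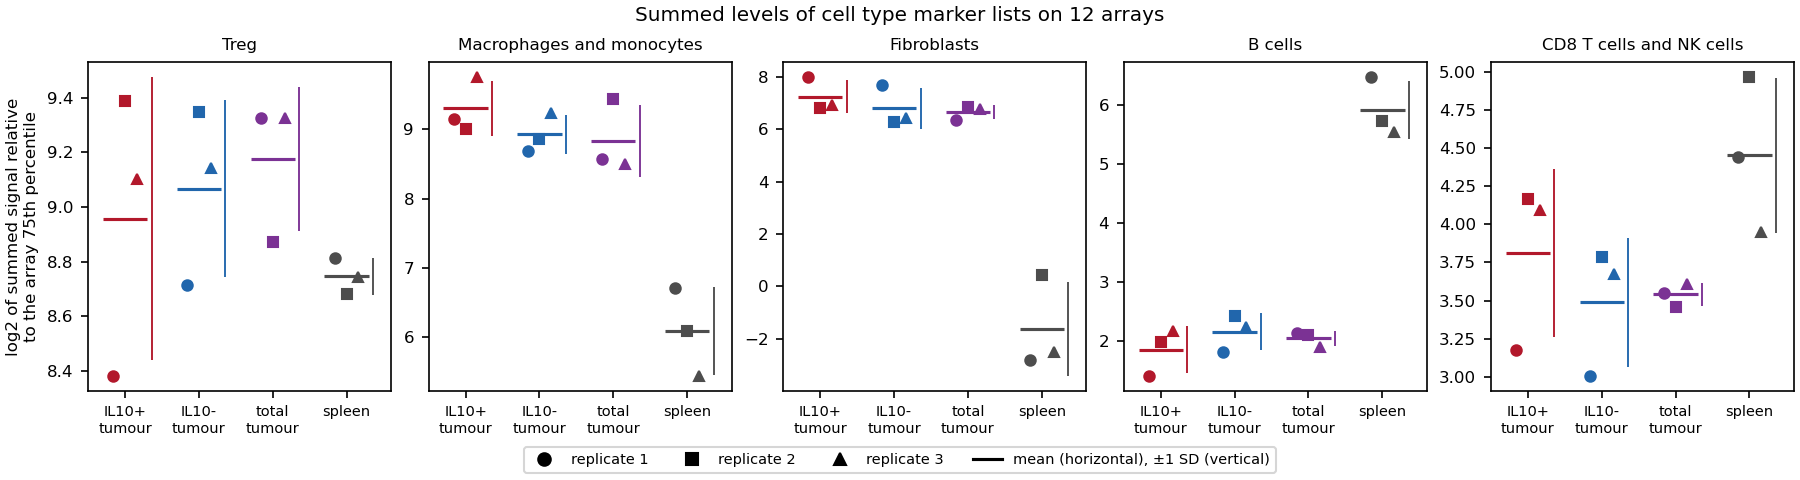
Summed signal of 5 marker lists on each array (log2 units above or below each array's 75th percentile), by group; horizontal lines are means and vertical lines 1 SD. Macrophage and fibroblast sums are higher and B cell sums lower on all 9 tumour arrays than on the 3 spleen arrays. Treg sums overlap between the IL10 fractions and spleen, and those of total tumour lie above those of spleen.

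Genes whose level followed each receptor gene most closely over the 12 arrays are given as a description, since the arrays share 4 groups and 4 slides. For Ccr2 they were Ugp2, Mrtfb and Lama5 (Pearson r of 0.979, 0.965 and 0.961). Ccr8 was followed by Gdpd5, Tnfrsf8 and Mapkapk2 (0.984, 0.982 and 0.978), of which Tnfrsf8 encodes the activation marker CD30. Cx3cr1 was followed by Ern1, Cd33 and Mt3 (0.978, 0.971 and 0.97), of which Cd33 is a myeloid surface receptor. Ccr4 was followed by Pdcd1lg2, which encodes a ligand of PD-1, and by Ccdc181 and Eno2 (0.942, 0.924 and 0.922).

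Ccr3 was closest to the transcription factor gene Maf (0.96), then to B4galnt4 and Cobll1 (0.943 and 0.942). Cxcr3 was closest to Mical1, Arc and Ppp1r16b (0.947, 0.943 and 0.94). Cxcr6 had lower values, with Trim36, Trp53i13 and Klrc1 (0.903, 0.902 and 0.895), of which Klrc1 encodes the inhibitory receptor NKG2A. Ccr1, mostly near background, was closest to Ankrd55, Zcchc4 and Slc17a5 (0.92, 0.872 and 0.778). Among the receptor genes themselves, the highest values were between Ccr8 and Cx3cr1 (0.798) and between Ccr2 and Ccr3 (0.786), and Cxcr6 and Ccr4 were at -0.29.

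The probes that represent the genes lie, in mm8 coordinates of the files, at chr9:123811755-123811814 (Ccr1), chr9:123957008-123957067 (Ccr2), chr9:123879291-123879350 (Ccr3), chr9:114340371-114340430 (Ccr4), chr9:119943021-119943080 (Ccr8), chr9:123660185-123660244 (Cxcr6), chr9:119898598-119898657 (Cx3cr1) and chrX:97934300-97934359 (Cxcr3). Ccr2, Ccr3, Ccr4 and Cx3cr1 had another probe each, whose values are given above. Ccr1, Ccr8, Cxcr3 and Cxcr6 rest on 1 probe each.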

How the data were processed

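The authors deposited scanner files of 12 Agilent arrays, made with Agilent Feature Extraction 9.5.3.1, with probes annotated on mm8. The deposited processed intensity is background-subtracted and carries no normalization between arrays, per the file headers. The deposited series value table holds log10 values (Pearson r with log10 processed intensity of 0.995 to 1.00), with a column median of 1.33 on every array; how it was normalized the sources used here do not say, and it served as an alternative.

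Outlier-flagged and control spots were left out, and spots of a probe were averaged. The brightest probe stood for a gene. Features well above background on at least 3 arrays were kept. All 12 arrays were fitted with limma 3.58.1 under R 4.3.3 (functions lmFit, eBayes; two-sided tests), with Benjamini-Hochberg adjustment within each of 6 comparisons. P-values measure the spread between these arrays, whose number limits the precision. A probe above background on no array of a group has only a bound there: the mean of the brighter group against, per array, the dimmest signal of any probe that was well above background (or its own, if higher). A summed level is log2 of the summed linear values. The steps were also run on simulated data with independent normal noise around the mean of each gene. That simulation held no slide effect, background floor or outlying array, so it cannot show how these affect the calls. Figures used matplotlib 3.10.9.

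The members, lists and alternatives were chosen with earlier results of these data known. Beside the receptor genes, each pathway list names the 3 genes with the smallest p in total tumour against spleen Treg and the 2 in IL10+ against IL10- tumour Treg, each receptor gene its 3 closest genes by Pearson r, and each marker list its 2 brightest genes. Cxcl16, Ccl5, Ctla4, Ikzf2, Tpsb2, Prg2 and markers named for being undetected were chosen after their values were seen. Dendritic cell, neutrophil, eosinophil, basophil and mast cell, and epithelial markers were read too. Deviations from the group means correlated between the IL10 fractions at 0.413, 0.43 and -0.237 for replicates 1, 2 and 3. In the other comparisons these correlations ran from -0.237 to 0.0825. Whether equal replicate numbers of the IL10 fractions belong together was not tested. The reported fit does not pair them, and the replicate block was run as an alternative. Whether probes lie in exons or untranslated regions was not analysed here. Values of 1 gene of the list of other chemokine receptors are not reported here.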

Additional observations from a re-analysis of the deposited data

How the results depend on the processing

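Over 25 alternatives, 1093 of the gene differences recomputed stayed on their side of the threshold, 53 lost a call, 15 gained one and 33 turned sign. The reported fit called 5, 4 and 4 of 8 genes in total tumour, IL10+ and IL10- against spleen Treg. It called 0 in the other comparisons, so most of the 1093 had no call to lose. Calls were lost in 18 of 25 alternatives for Ccr3 in IL10+ and in 14 of 24 for Ccr1 in IL10- against spleen Treg. In total tumour against spleen Treg, Cxcr6 lost its call in 10 of 25, whereas Ccr2 and Cx3cr1 kept theirs in all 25. In total tumour against spleen Treg, 2 of 8 receptor genes were called with slide as a fixed block, and 2 to 5 when each array was left out (2 without total tumour replicate 1). In IL10+ against spleen Treg, 1 was called with slide as a block, 2 with the replicate block on only the 6 arrays of the contrast, and 3 to 4 when each array was left out. In IL10- against spleen Treg, 2 were called with normexp, 0 with slide as a block and 3 to 5 when each array was left out. In IL10- against total tumour Treg, array weights called 3 (Ccr2, Ccr3 and Ccr8), and leaving out each array called 0 to 1. The random slide block and the 6-array replicate block were added after the data were seen. The cause of these changes was not tested.

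Signs turned with slide as a fixed block for IL10+ against IL10- (Ccr8 0.29, Cxcr3 0.33), total tumour against spleen (Ccr1 0.14), IL10- against spleen (Ccr3 -0.66, Ccr4 -0.23), IL10+ against total tumour (Ccr1 -0.25, Ccr8 -0.82, Cx3cr1 -0.18) and IL10- against total tumour Treg (Ccr4 -0.99, Ccr8 -1.10, Cx3cr1 -1.34). They turned with normexp for Ccr1 in total tumour (0.076) and IL10+ (0.90) against spleen and for Ccr8 in IL10+ against total tumour Treg (-0.21). Ccr1 in IL10+ against total tumour Treg turned with quantile normalization (-0.28), the value table (-0.28) and slide as a random block (-0.0043). None of these had passed the test. With arrays left out, signs turned for IL10+ against IL10- (Ccr8 -1.34 to 0.22, Cxcr3 -0.68 to 0.088, Cx3cr1 -0.011 to 0.74), against spleen for total tumour Ccr1 (-1.10 to 0.084), IL10+ Ccr1 (-1.08 to 0.25) and Ccr4 (-0.90 to 0.28) and IL10- Cxcr3 (-0.51 to 0.18), and against total tumour for IL10+ Ccr1 (-0.76 to 0.58) and IL10- Cx3cr1 (-0.044 to 0.69).

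The replicate block changed the call of Ccr3 (1.37, adjusted p = 0.065) and Cxcr6 (2.42, adjusted p = 0.0495) in IL10+ against spleen Treg and left 0, 5, 4, 4, 0 and 0 receptor genes called in the 6 comparisons, the same numbers as without it. Over all features and all alternatives, left-out arrays included, the calls ranged from 1864 (normexp) to 9484 (array weights) in total tumour against spleen Treg, with 6566 in the reported fit, from 2390 to 8189 (7894) in IL10+ against spleen, from 1202 to 10010 (7615) in IL10- against spleen, from 0 to 19 (8) between the IL10 fractions (19 without spleen replicate 2), and from 0 to 482 (31, with 482 without IL10+ replicate 1) and 0 to 3052 (23) in IL10+ and IL10- against total tumour Treg.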
